A study of Mus musculus with 5 samples.

Results

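Enrichment by an antibody to 5-hydroxymethylcytosine (5hmC) was compared with capture by a methyl-CpG binding domain (MBD) in mouse embryonic stem cells, to ask where 5hmC lay apart from MBD-bound DNA. The pair consisted of 2 of the 5 libraries of the study, namely hMeDIP-seq with the 5hmC antibody and the MethylCap-seq eluate at 800 mM NaCl, chosen by their labels. Both came from clones of the E14 line taken from a gene-trap library. The labels do not say which clones entered which library. For hMeDIP, adaptor-ligated genomic DNA was denatured and incubated with 2 µg of an Active Motif antibody, per the labels. For MethylCap, the MBD fused to GST (2 µg) was incubated with sonicated DNA (1 µg) and the bound DNA was released by salt. A MethylCap eluate at 600 mM NaCl, MeDIP-seq with a 5-methylcytosine (5mC) antibody (Diagenode) on DNA denatured in the same way, and an input were read beside the pair and were not used to choose any bin. The 600 mM eluate and MeDIP are from E14 clones too. The input is chromatin DNA of TNG-A cells, another E14 derivative, with an EGFP reporter at the Nanog locus. All cells were grown without feeders, with leukaemia inhibitory factor and 10% serum. Each side of the comparison has 1 library, so neither a test nor a check against replicates could be made.

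In mammalian DNA, 5mC is made by DNA methyltransferases and is oxidised to 5hmC by the TET dioxygenases, which are active in embryonic stem cells. The MBD binds methylated CpG in double-stranded DNA and binds 5hmC weakly, and more salt is needed to release fragments that carry many methylated CpGs. Antibodies to 5mC and 5hmC act on denatured DNA and therefore pull down single strands. CpG reads the same on both strands, so that a symmetrically modified CpG offers the mark on each strand.

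Reads were counted by their midpoint in bins of chromosomes 1 to 19 and scaled to library size as RPM (reads per 1000000 reads). The hMeDIP library held 18154810 such reads and the 800 mM eluate 6812759, so that 1 read equalled 0.0551 RPM and 0.147 RPM. Of 2472334 bins of 1 kb, 2148478 held a read in the pair, with a mean of 8.45 hMeDIP reads and 3.17 reads at 800 mM. A bin without an 800 mM read can hold up to 0.440 RPM (3 reads), close to the library mean of 0.465 RPM, so a single empty bin does not show that MBD-bound DNA was absent. Ratios were computed as (RPM + 0.5)/(RPM + 0.5), and the added 0.5 RPM equals 9.08 hMeDIP reads or 3.41 reads at 800 mM. A bin of 1 kb is called 5hmC-high or MBD-high when this ratio was at least 3-fold towards hMeDIP or towards the 800 mM eluate. The 95% intervals printed beside raw ratios of reads are exact and cover counting error only, because reads carry no molecular identifiers.

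At the scale of 100 kb the libraries were dense in the same regions, and they parted at 1 kb. The log2 levels of hMeDIP and the 800 mM eluate correlated across bins with r = 0.909 at 100 kb (23906 bins), 0.755 at 10 kb (236902 bins) and 0.468 at 1 kb (2148478 bins). By chromosome, r at 1 kb lay between 0.427 and 0.504. For the 800 mM and 600 mM eluates r at 1 kb was 0.813, and for hMeDIP and the 5mC antibody it was 0.625. Between hMeDIP and input r was 0.0798 at 1 kb, 0.440 at 10 kb and 0.616 at 100 kb. Between the 800 mM eluate and input it was -0.00367, 0.236 and 0.430, so correlation with input also rose with bin size. Bins are not independent replicates, share base composition and mappability, and hold few reads at 1 kb, where counting error lowers r. With hMeDIP thinned to the depth of the 800 mM eluate, r at 1 kb was 0.358.

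**Figure D1:**
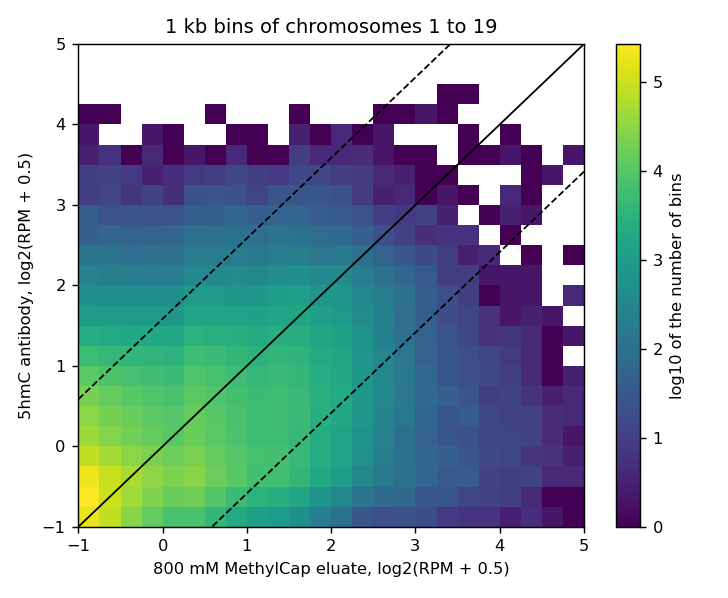
Density of 1 kb bins by log2(RPM + 0.5) of the 800 mM MethylCap eluate (x axis) and of hMeDIP (y axis), with log10 of the number of bins as colour, a solid line at equal levels and dashed lines at 3-fold to either side. Most bins lie in the lower left corner, 47008 lie past the upper and 50672 past the lower dashed line, and 57 bins with higher values are outside the axes.

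A similar number of 1 kb bins lay on each side. There were 47008 5hmC-high bins (2.19% of bins with a read) and 50672 MBD-high bins (2.36%). At 2-fold the counts were 191402 (8.91%) and 165527 (7.7%), and at 5-fold 5294 (0.246%) and 6957 (0.324%). At 8-fold they were 727 (0.0338%) and 1387 (0.0646%). The interval of the raw ratio lay wholly above 1 in every called bin. It lay wholly above 3 in 8192 (17.4%) of the 5hmC-high and 26673 (52.6%) of the MBD-high bins. An interval above 1 follows from the call, which needed at least 19 hMeDIP reads or at least 7 reads at 800 mM. The intervals use the same reads that chose the bins, so they are no separate evidence of a difference. Which side held more bins depended on the scale of the values. The median log2 ratio was 0.16 at 1 kb, 0.34 at 10 kb and 0.29 at 100 kb, and when the median ratio was set to 1, the counts at 1 kb were 30837 5hmC-high and 76682 MBD-high bins. The share of calls that were 5hmC-high was thus 48.1% with read totals and 28.7% with the median. It was 71.6% with a pseudocount of 0.1 RPM and 33.2% with 1 RPM, so the balance between the sides is not a stable result.

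The 5hmC-high bins were also dense in the 5mC antibody library, which had no part in the choice. They held 8.99% of all hMeDIP reads and 0.518% of the 800 mM reads, as the choice required, at a median of 28 hMeDIP reads. MeDIP stood at 2.34 times its mean over all bins in them, with 2.07 to 2.78 times on single chromosomes. It reached at least 3 times its mean in 9942 (21.1%) of them, against 6.14% of all bins. The 600 mM eluate, by contrast, was at 0.701 times its mean, and below its mean in 77.6% of the 5hmC-high bins against 69.6% of all bins. Input was at 1.03 times its mean. Relative to all bins, the bins that the 5hmC antibody favoured over MBD capture were therefore also high with the 5mC antibody and low in the 600 mM eluate. At a similar hMeDIP depth, however, MeDIP was lower where MBD signal was low. In bins with 20 to 39 hMeDIP reads, MeDIP was at 5.36 times its mean with 32 or more reads at 800 mM. It was at 1.62 times with 1 such read, and lower still without any. High MeDIP thus does not set the 5hmC-high bins apart from other bins dense in hMeDIP. No mock pulldown was analysed here, so binding by both antibodies apart from the marks was not tested.

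The 5hmC-high bins were graded by their MBD signal. No 800 mM read fell in 30588 (65.1%) of them, against 38.6% of all bins. In this set hMeDIP was at 3.19 times, MeDIP at 1.61 times and the 600 mM eluate at 0.409 times its mean, with input at 1.00. The 14060 bins with 1 to 3 reads at 800 mM had hMeDIP at 5.03, MeDIP at 2.86 and 600 mM signal at 0.962 times the mean. The remaining 2360 bins, with at least 4 reads, had hMeDIP at 10.5, MeDIP at 8.59 and the 600 mM eluate at 2.93 times the mean. The hMeDIP levels are set by the 3-fold rule, which needed at least 19, 27 and 51 hMeDIP reads in these sets, and MeDIP rose in step with them.

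The MBD-high bins were dense in the 600 mM eluate and, to about the same degree as the 5hmC-high bins, in MeDIP. They held 15.8% of the 800 mM reads and 1.88% of the hMeDIP reads, with medians of 18 and 5 reads. The 600 mM eluate, which shares the capture, was at 4.38 times its mean. MeDIP was at 2.46 times its mean, with 2.22 to 2.72 on single chromosomes, and at least 3 times its mean in 14324 (28.3%) of the bins. Input was at 0.879 times its mean. Against all bins, hMeDIP below its mean was little more frequent in them, while bins without an hMeDIP read were more frequent. Reads of hMeDIP were absent from 2523 of them (4.98%, against 2.65% of all bins), hMeDIP lay below its mean in 72.1% (68.5% of all bins), and it exceeded input in 43.4% (39.8% of all bins). Against bins of a like MBD level hMeDIP was low in them, as the 3-fold rule requires. It was at 0.372 RPM in the MBD-high bins and at 1.22 RPM in all bins with 16 to 31 reads at 800 mM. A smaller set of 3279 MBD-high bins lay below the mean of the 600 mM eluate. There MeDIP was at 0.748 and hMeDIP at 0.464 times the mean, whereas in the other 47393 bins MeDIP was at 2.58 times the mean.

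Across the genome, hMeDIP signal rose with MBD signal, and in either reading the library read rose less than in proportion to the grading library. The 2296100 bins with a read in any of the 5 libraries, a wider set than that of the pair, were classed by their 800 mM reads, and hMeDIP was read in each class. The hMeDIP level rose from 0.242 RPM in bins without an 800 mM read to 0.891 RPM at 8 to 15 reads and 1.56 RPM at 32 to 63 reads, and was 1.63 RPM at 64 or more. MeDIP rose over the same classes from 0.197 to 2.51 RPM. The ratio of hMeDIP to 800 mM signal fell from 2.30 in bins with 1 read to 0.104 in those with 64 or more, a fall that the grading by 800 mM reads itself favours. Input was level between the lowest class (0.426 RPM) and 32 to 63 reads (0.436 RPM), and it was 0.854 RPM in the 986 bins of the highest class. Its part in the values of that class was not tested. In the reverse reading, by hMeDIP reads, the 800 mM level rose from 0.0853 RPM in bins without an hMeDIP read to 2.13 RPM in the 8850 bins with 64 or more, and MeDIP from 0.0943 to 3.97 RPM. The ratio of hMeDIP to 800 mM signal then rose, from 0.442 in bins with 1 hMeDIP read to 2.24 in those with 64 or more. Grading by a library favours this in either direction, so neither reading shows a lack of proportion between the signals.

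**Figure D2:**
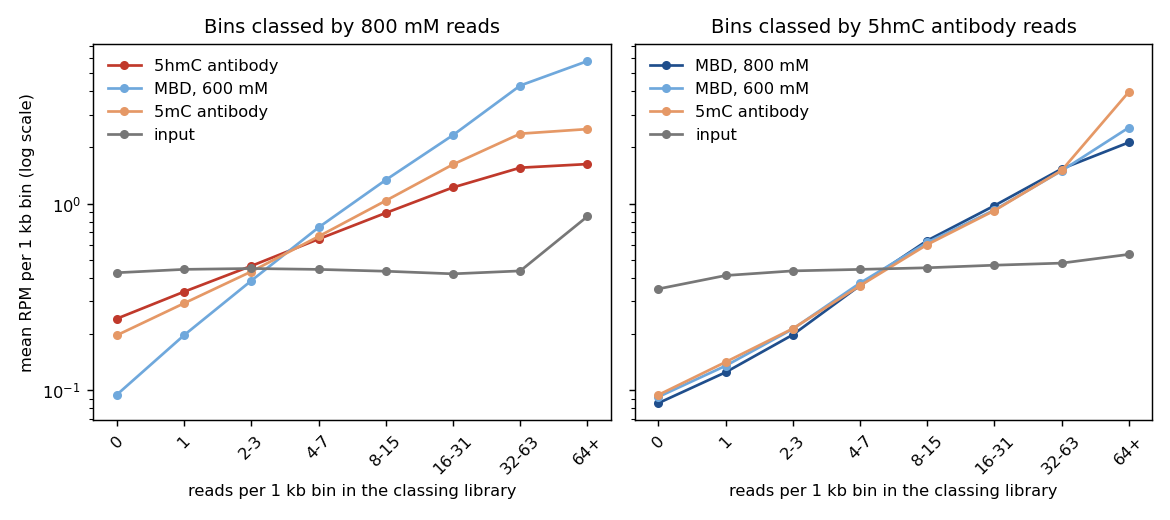
Mean level in RPM per 1 kb bin (y axis, log scale) by class of 800 mM reads (left) and of hMeDIP reads (right) on the x axis, with 1 line for each library other than the classing one. hMeDIP rises from 0.242 to 1.63 RPM over the classes of 800 mM reads, MeDIP from 0.197 to 2.51 RPM.

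The bins densest in 1 library of the pair were mostly above the mean of the other. Of 15160 bins with at least 3 RPM in hMeDIP, 8473 (55.9%) held at least 3 times the mean of the 800 mM eluate, against 9.60% of all bins. A further 3811 (25.1%) lay between 1 and 3 times the mean. Below the mean lay 2876, where 73.7% of all bins lay, and 782 of these had no 800 mM read. MeDIP was high in all of these classes, at 7.66, 6.74 and 5.51 times its mean. Conversely, of 41181 bins with at least 3 RPM at 800 mM, 15223 (37.0%) held at least 3 times the hMeDIP mean, against 6.13% of all bins, and 6936 (16.8%) lay below it.

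Around the dense bins both signals fell within 1 kb and neither showed a flanking peak. In bins dense in hMeDIP, hMeDIP was at 8.87 times its mean, and it was at 2.72 at 1 kb and 1.76 at 10 kb from them. The 800 mM signal at the same places fell from 4.39 to 2.68 and 1.99 times its mean. Of the height over the level at 10 kb, 13.5% was left at 1 kb in hMeDIP, 13.9% in MeDIP and 28.6% in the 800 mM eluate. Around bins dense at 800 mM, that eluate fell from 9.33 to 3.79 and 2.28, and hMeDIP from 2.97 to 2.01 and 1.67 times the mean. There the share left at 1 kb was 21.5% in the 800 mM eluate, 26.0% in hMeDIP and 25.8% in MeDIP. In both readings the library that chose the bins had the smallest share left. The library that defines the dense bins is raised at the centre by the choice. Fragments were longer in the capture, with the strands of the reads offset by 250 bp at 800 mM and by 170 to 180 bp in hMeDIP, and the part of fragment length in the profiles was not tested.

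**Figure D3:**
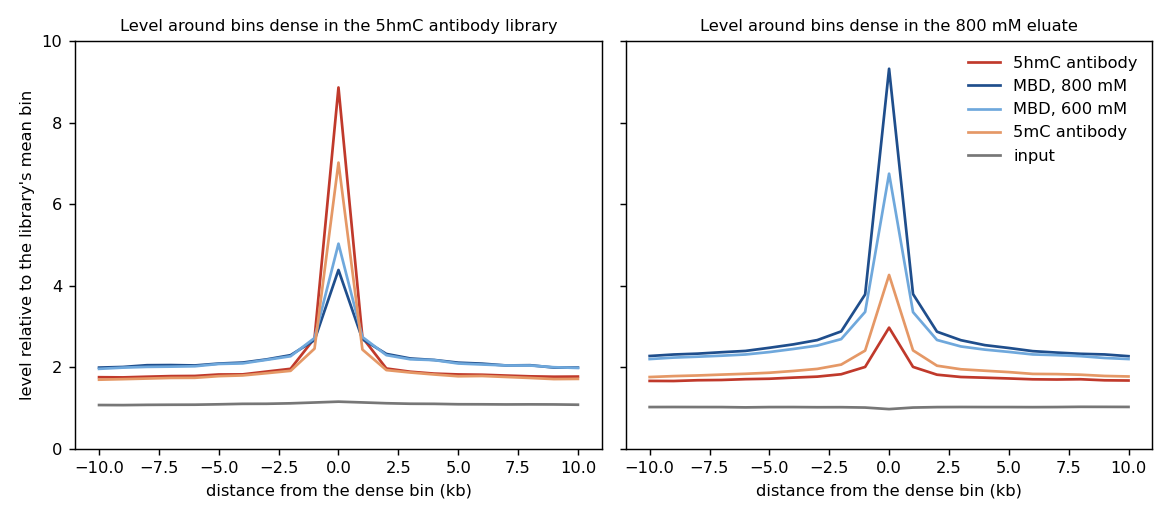
Level over the library mean (y axis) by distance in kb (x axis) from 1 kb bins with at least 3 RPM in hMeDIP (left) and at least 3 RPM in the 800 mM eluate (right), 1 line per library. Both signals peak at the centre in both panels, at 8.87 for hMeDIP on the left and 9.33 for the 800 mM eluate on the right.

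Reads of the 5hmC antibody fell on 1 strand in a large part of the 5hmC-high bins. Of the 43101 5hmC-high bins with at least 20 hMeDIP reads, 17431 (40.4%) had at least 90% of these reads on the same strand, 8679 on the plus and 8752 on the minus strand. On single chromosomes the share was 34.3 to 42.9%. Among other bins with at least 20 hMeDIP reads it was 11.7%. The capture of double-stranded DNA gave almost no such bins, with 26 of 21019 MBD-high bins (0.124%) for the 800 mM reads. In input the count was 2 of 20065 bins (0.00997%). Strand-skewed bins took a larger share at higher folds towards hMeDIP, with 56.2% at 5-fold, 545 of 727 at 8-fold and 89.7% (35 of 39) at 16-fold.

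The 5mC antibody, in a separate library, was skewed to the same strand. In the 19342 bins of the genome whose hMeDIP reads lay at least 90% on the plus strand, 87.6% of MeDIP reads were on the plus strand, against 52.6% of 800 mM reads, 52.4% of 600 mM reads and 50.8% of input reads. In the 19071 minus-skewed bins the plus strand held 12.3% of MeDIP, 47.9% of 800 mM and 49.0% of input reads. Where such bins held at least 20 MeDIP reads, MeDIP passed the same limit on the same strand in 2458 of 4328 plus-skewed and 2529 of 4401 minus-skewed bins, and on the opposite strand in 0 of either set. The 800 mM reads passed it in 0 of 515 and 0 of 500 bins. Across the whole genome 21.3% of bins with at least 20 MeDIP reads were strand-skewed in MeDIP.

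Skewed signal was more frequent where MBD capture was low. Among bins with 20 to 39 hMeDIP reads, which holds the depth of hMeDIP about level, the skewed share was 41.9% without an 800 mM read, 19.6% at 2 to 3 reads, 6.93% at 8 to 15 reads and 3.35% at 32 or more. Of bins with at least 3 RPM in hMeDIP, 58.6% of those below the 800 mM mean were skewed, and 13.1% of those with at least 3 times that mean. Neighbouring skewed bins shared a strand in 1410 of 1680 pairs (83.9%). Input and the eluates were near 50% plus in the skewed bins, and whether cytosines there lie mainly on 1 strand was not analysed here, because no mm9 sequence was used. The part of denaturation or of single-strand pulldown in the skew was not tested.

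**Figure D4:**
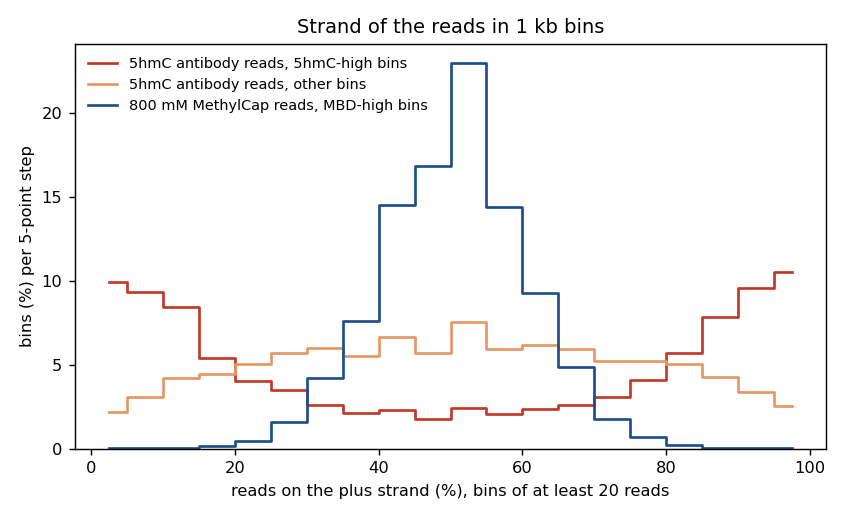
Strand of reads in 1 kb bins with at least 20 reads: the share of bins (y axis, %) by the percentage of reads on the plus strand (x axis) in steps of 5 points, for hMeDIP reads in 5hmC-high bins and in other bins and for 800 mM reads in MBD-high bins. hMeDIP reads of 5hmC-high bins pile up at both ends of the axis (40.4% at or past 90% on 1 strand), and 800 mM reads of MBD-high bins lie around the middle (0.124% past it).

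MeDIP was less raised in 5hmC-high bins without strand skew, where hMeDIP was also lower, and the part of the lower hMeDIP was not tested. With the strand-skewed bins left out, 29577 5hmC-high and 50603 MBD-high bins remained at 3-fold. In the skewed 5hmC-high bins hMeDIP was at 4.52, MeDIP at 2.72 and the 600 mM eluate at 0.602 times the mean, with input at 0.906. The 25670 bins of at least 20 hMeDIP reads, under 90% on 1 strand, had hMeDIP at 4.12 and MeDIP at 2.25 times the mean. The 600 mM eluate was at 0.818 and input at 1.12 times the mean in them. The 11131 5hmC-high bins with 25 to 75% of hMeDIP reads on the plus strand had hMeDIP at 3.83, MeDIP at 1.77 and the 600 mM eluate at 0.844 times the mean, but input was at 1.20 there. The part of the raised input in the bins without skew was not tested.

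The bins with the highest ratios show the pattern read by read. Positions are in mm9, counted from 1. The bin on chromosome 8 at 82712001-82713000 held 287 hMeDIP reads, all on the minus strand, and no 800 mM read. With the absent reads at a floor of 3 it was 35.9-fold higher in hMeDIP, and at least 29.0-fold by the lower limit of the interval. MeDIP had 57 reads there, 4 of them plus, the 600 mM eluate 9 and input 7. The bin on chromosome 11 at 5971001-5972000 held 263 hMeDIP reads (3 plus), 115 MeDIP reads (1 plus), 1 read at 600 mM, none at 800 mM and 6 input reads. This is 32.9-fold against the same floor, and at least 26.6-fold by the interval. Both antibodies thus piled up on 1 strand where the eluates held 0 to 9 reads.

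A plus-strand example lay on chromosome 11 at 31628001-31629000, with 187 hMeDIP reads (181 plus) and 108 MeDIP reads (104 plus). That bin had no 800 mM read, 4 reads at 600 mM and 10 in input. On chromosome 5, the neighbouring bins from 36613001 to 36615000 were both among the 10 highest. The second of them held 292 hMeDIP reads (291 plus) against 1 read at 800 mM, a ratio of 109.6 with an interval of 19.5 to 4343. Of the 10 bins with the highest ratio, 9 had no 800 mM read and 9 had at least 90% of hMeDIP reads on 1 strand. In all 10 the majority strand of MeDIP was that of hMeDIP, and MeDIP was at least 3 times its mean. Ranked bins are extremes of the ratio by choice.

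At 10 kb the most 5hmC-biased bin lay on chromosome 14 at 27560001-27570000. It held 1531 hMeDIP reads, of which 35 were plus, 442 MeDIP reads, of which 15 were plus, 13 reads at 800 mM, 31 at 600 mM and 46 in input. The raw ratio of hMeDIP to 800 mM was 44.2 (25.8 to 83.2). Overlapping its end, 7 neighbouring 1 kb bins from 27565001 to 27572000 were all minus-skewed, with 1121 hMeDIP reads (26 plus) and 21 reads at 800 mM. The longest stretch of bins skewed to the same strand was 9 kb, on chromosome 2 at 116371001-116380000, with 299 of 311 hMeDIP and 46 of 47 MeDIP reads on the plus strand. Input there had 21 of 35 reads on the plus strand.

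The bins most biased to MBD capture were of another kind, with many reads at 800 mM and few with either antibody. Highest was chromosome 13 at 118062001-118063000, with 551 reads at 800 mM, 4 in hMeDIP, 1 in MeDIP, none at 600 mM and 7 in input, a ratio of 367.1 (142.6 to 1352). Another on chromosome 15 at 76735001-76736000 held 285 reads at 800 mM, none in hMeDIP and 1 in MeDIP, which is 253.2-fold against the floor of 3 reads, and at least 204.6-fold by the interval. One on chromosome 6 at 87793001-87794000 held 364 at 800 mM, 3 in hMeDIP, 5 at 600 mM and none in MeDIP. All of the 10 highest MBD-high bins were below the mean in MeDIP, with 0 to 3 reads. They held 0 to 14 reads at 600 mM, with 5 of the 10 below the mean and the highest at 3.18 times it. Input was above its mean in 8 of the 10, with 6 to 29 reads and up to 4.02 times the mean, and its part in these bins was not tested. Their 800 mM reads were 41.0 to 54.8% plus. The 5mC antibody thus held few reads at these positions.

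The densest MBD-high bins differed in how far other libraries were raised. Of 767 MBD-high bins with at least 10 RPM, 526 (68.6%) had fewer than 20 reads at 600 mM, as did 96.3% of all bins. Their medians were 97 reads at 800 mM, 6 at 600 mM, 5 in MeDIP, 11 in hMeDIP and 9 in input. Over all bins the medians were 1 read at 800 mM, 2 at 600 mM, 3 in MeDIP, 5 in hMeDIP and 7 in input. The other 241 had medians of 85 reads at 800 mM, 38 at 600 mM, 20 in MeDIP, 25 in hMeDIP and 7 in input. The 3 longest MBD-high stretches were unlike the ranked bins and were covered by both eluates and MeDIP. Other stretches were not summarised here. The longest, 9 kb on chromosome 2 at 76554001-76563000, held 265 reads at 800 mM, 277 at 600 mM, 229 in MeDIP, 71 in hMeDIP and 48 in input, a ratio of 9.95 (7.63 to 13.1) towards the 800 mM eluate. A second stretch at 76574001-76582000 on the same chromosome held 322 at 800 mM, 343 at 600 mM, 320 in MeDIP and 81 in hMeDIP, a ratio of 10.6 (8.28 to 13.7). In these stretches both eluates and the 5mC antibody were high, and the 5hmC antibody was low relative to them.

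Most runs of called bins were a single bin, but called bins lay next to their own kind more often than any bin did. Another 5hmC-high bin lay within 1 kb of 11.3% of 5hmC-high bins, against 4.18% of all bins. For MBD-high bins near another MBD-high bin the shares were 22.2% and 4.44%. Of 44243 runs of neighbouring 5hmC-high bins, 94.3% were a single bin, 185 had at least 3 bins and the longest had 10. Of 44519 MBD-high runs, 88.6% were single, 827 had at least 3 and the longest had 9. The longest 5hmC-high run lay on chromosome 7 at 51729001-51739000. It held 487 hMeDIP reads (400 plus), 219 MeDIP reads (175 plus), 4 reads at 800 mM, 12 at 600 mM and 43 in input, a ratio of 45.7 (17.7 to 168.4). On chromosome 6 at 100408001-100416000 there were 434 hMeDIP reads (403 plus), 165 MeDIP reads (146 plus), 3 reads at 800 mM, 30 at 600 mM and 37 in input, a ratio of 54.3 (18.5 to 264.3).

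The 2 kinds of bin were rarely adjacent, and at 10 to 50 kb they lay near each other about as often as any bin does. An MBD-high bin lay within 1 kb of 2.23% of 5hmC-high bins, where 4.44% of all bins had an MBD-high bin other than themselves so near. Within 10 kb the shares were 27.4% and 28.4%, and within 50 kb 71.4% and 66.2%. When 100 kb windows were graded by their 800 mM reads into 5 groups of about equal size, 751 MBD-high bins lay in the lowest group, 0.754% of bins were MBD-high in the next and 5.84% in the highest. The 5hmC-high bins made up 1.30% of bins in the lowest group, 2.82% in the second highest and 2.65% in the highest. The highest group held 53.4% of the MBD-high and 26.0% of the 5hmC-high bins, and the lowest 1.49% and 10.4%. Since 800 mM reads define both the grading and the MBD-high bins, the rise of the latter is partly built in. Graded by MeDIP, which chose no bin, the highest group held 50.7% and 28.4% and the lowest 3.17% and 8.54%. The overall ratio of hMeDIP to 800 mM reads fell from 2.57 to 0.759 from the lowest to the highest group, a ratio with the grading library as its divisor. Between these groups, graded by 800 mM reads, MeDIP in the 5hmC-high bins rose from 0.715 to 1.38 RPM. Over all bins of the groups MeDIP rose from 0.185 to 0.822 RPM, proportionally more than in the 5hmC-high bins.

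**Figure D5:**
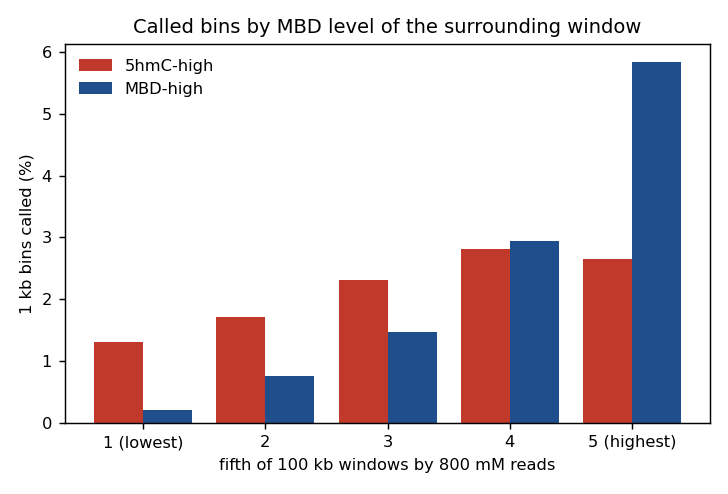
Share of 1 kb bins (y axis, %) that were 5hmC-high or MBD-high, by 5 groups of 100 kb windows graded by 800 mM reads (x axis, lowest to highest). MBD-high bins rise to 5.84% and 5hmC-high bins from 1.30 to 2.65%.

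At larger scales, a ratio towards hMeDIP marked regions with low 800 mM signal, and at 100 kb hMeDIP was low there as well. At 10 kb, with a 2-fold threshold, 57603 bins (24.3%) were 5hmC-high and 16494 (6.96%) MBD-high, and at 100 kb 4846 (20.3%) and 258 (1.08%). At 3-fold, 20995 (8.86%) and 3681 (1.55%) bins of 10 kb and 1183 (4.95%) and 18 (0.0753%) of 100 kb were called. With the median ratio set to 1 the counts were 34105 and 33012 at 10 kb and 2630 and 1135 at 100 kb. The 4846 windows of 100 kb had hMeDIP at 0.521, the 800 mM eluate at 0.198 and MeDIP at 0.441 times the mean, with input at 0.940, and hMeDIP exceeded its mean in 165 (3.40%) of them. At 10 kb hMeDIP was at 0.828 and the 800 mM eluate at 0.220 times the mean, and hMeDIP exceeded its mean in 23.9% of the 5hmC-high bins. The share of all 10 kb or 100 kb bins above the hMeDIP mean was not determined here. At 1 kb all 47008 exceeded the hMeDIP mean, as the call required. The 258 MBD-high windows of 100 kb had the 800 mM eluate at 2.71, hMeDIP at 1.19 and MeDIP at 1.77 times the mean.

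An example of a 5hmC-high window of 100 kb lay on chromosome 4 at 92300001-92400000, with 273 hMeDIP reads, 5 at 800 mM, 91 in MeDIP and 556 in input (ratio 20.5, 8.67 to 63.6). Its hMeDIP level was 0.359 times the mean. The highest MBD-high window, on chromosome 2 at 76500001-76600000, held 1853 reads at 800 mM, 1085 in hMeDIP, 2161 at 600 mM, 1620 in MeDIP and 774 in input, a ratio of 4.55 (4.22 to 4.91). It contains the MBD-high stretches of chromosome 2 described above.

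Over whole chromosomes the ratio of hMeDIP to 800 mM reads ran from 0.922 (0.919 to 0.925) on chromosome 5 to 1.10 (1.09 to 1.10) on chromosome 14. Next to the extremes were chromosome 8 at 0.924 and chromosome 3 at 1.09. Along chromosomes the ratio was lowest from 5 to 10 Mb before the distal end, at 0.775 (0.773 to 0.778), and it was below 1 on 18 of 19 chromosomes there. In that zone the 800 mM eluate was at 1.80 and hMeDIP at 1.39 times the mean, MBD-high bins made up 5.02% and 5hmC-high bins 2.29%. The zone was rich in both signals and richer in MBD-bound DNA. From 10 to 20 Mb after the centromere-proximal start, the ratio was 1.25, with the 800 mM eluate at 0.632 and hMeDIP at 0.787 times the mean.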

How the data were processed

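Each line of the deposited files is 1 aligned read (35 bp), so the values used are read counts made from the authors' alignments. The submitters' processing notes name BWA 0.5.8 and the mm9 build. What column 4 of the deposited files means is not stated in these sources. Reads with a 1 in it (8.14% at 800 mM, 7.85% at 600 mM, 8.45% of input, 0 in hMeDIP and MeDIP) were left out. After this no position and strand held more than 1 read, which caps dense signals. Reads were assigned by midpoint to 1, 10 and 100 kb bins of chromosomes 1 to 19 and scaled to reads per 1000000 (RPM), with a pseudocount of 0.5 RPM and no input as divisor. Thresholds were 3-fold at 1 kb and 2-fold at 10 and 100 kb. Intervals are exact (Clopper-Pearson on the conditional binomial, 95%).

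Named bins have the highest ratio in each direction. At 1 kb these are 10 bins with at least 20 reads in the higher library and 3 in input. At 10 and 100 kb they are 5 bins with at least 30 and 300 input reads. The 3 longest runs of called bins per direction were also taken. Only some of these are described one by one. The pair, bin sizes and lists were chosen with earlier results of these data known. The strand measure (at least 90% of at least 20 reads) was chosen after seeing the data, as was the alternative without such bins. Alternatives varied the pseudocount, threshold, bin size, read filter, eluate, depth, input minimum, scaling and read position. The calling rule was tested on simulated data. No gene annotation or sequence of mm9 was used, so genes and CpG content were not analysed here. Python 3.11.15, numpy 2.4.6, pandas 2.3.3, scipy 1.17.1 and matplotlib 3.10.9 were used.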

Additional observations from a re-analysis of the deposited data

Results flagged for a closer look

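Sequences outside chromosomes 1 to 19 were not part of the comparison, and some held more signal than input. Reads of chromosome Y were 145-fold over input in hMeDIP (interval 95.5 to 231.5, 3543 against 22 input reads) and 133-fold in the 800 mM eluate (87.2 to 212.4, 1217 reads). The input is from another line, so this cannot be told apart from a difference in Y between the lines. Unplaced sequence was 1.39-fold over input in hMeDIP (1.37 to 1.42) and 1.72-fold at 800 mM (1.68 to 1.76).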

How the results depend on the processing

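Counts of 1 kb bins moved with the pseudocount and the threshold. With 0.1 RPM there were 474767 5hmC-high and 187960 MBD-high bins, and with 1 RPM 7089 and 14278. At 2-fold there were 191402 and 165527, and at 5-fold 5294 and 6957. With the median ratio set to 1 there were 30837 and 76682 at 1 kb and 34105 and 33012 at 10 kb, because the shift moves all ratios towards MBD. The 600 mM eluate in place of the 800 mM one gave 33608 MBD-high bins, and the cause was not tested. Without bins skewed to 1 strand, 29577 were 5hmC-high, since these bins make up part of the set. The correlation at 1 kb was 0.498 with the 600 mM eluate, and 0.358 with hMeDIP thinned, where fewer reads raise counting error. The other 54 of 70 values stayed close to the reported ones (counts within 1.5 times, and correlations within the spread over chromosomes). Some had to: keeping repeated reads could change no value, since none were present, and the median shift could change no correlation. The side with more 1 kb bins did change. Of the calls, 48.1% were 5hmC-high in the main setting, 71.6% with 0.1 RPM and 53.6% at 2-fold. All values rest on 1 library per side, and depth limits single 1 kb bins most at 800 mM, with a mean of 3.17 reads. Leaving out a replicate was not possible.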

Other observations

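Chromosome X and mitochondrial DNA lay outside the bins compared. On X the ratio of hMeDIP to 800 mM reads, scaled by autosomal reads, was 1.59 (1.58 to 1.60), above the range of 0.922 to 1.10 on chromosomes 1 to 19. Both signals were low on X, with hMeDIP at 0.419 and the 800 mM eluate at 0.263 times input, which is from another line. On mitochondrial DNA the ratio of hMeDIP to 800 mM reads was 0.657 (0.633 to 0.681), with 8300 hMeDIP reads and 4744 at 800 mM.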
